A study of Mus musculus with 6 samples.

Results

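Prostaglandin and leukotriene metabolism was followed through 10 genes in type 1 conventional dendritic cells (cDC1s) grown from mouse bone marrow. The genes encode enzymes and receptors and were chosen from a list drawn up with the results of these same libraries known. They were found by symbol among the 54532 genes counted in each of the 6 libraries. Of the 10, 8 had enough reads to be tested, and *Ptgs2* and *Ptges* had not. Because the contrast between genotypes was in view when the genes were chosen, their values are given as a description, without p-values.

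The libraries hold poly(A) RNA of cells sorted as CD24+ CD11c+ B220- CD115- CD172a- after 8 days of culture with 80 ng/mL FLT3L, the cytokine that drives dendritic cell development. Of the 6, 3 came from *c-Jun/JunB* fl/fl mice and 3 from *c-Jun/JunB* fl/fl *Itgax*-Cre mice, named Δ/Δ in the title of the series, and libraries are called by genotype and replicate number. Both genotypes carry the floxed alleles, and in Δ/Δ mice the Cre is driven by the promoter of *Itgax*, the gene of CD11c. The mice of the study were of a mixed 129 Sv and C57BL/6 background and 8 to 16 weeks old, and libraries with the Cre alone were not analysed here. Reads on genes numbered 25860931, 26788296 and 23666519 in fl/fl 1, 2 and 3 and 24429016, 21693217 and 22874838 in Δ/Δ 1, 2 and 3. The labels name no animals, and a legend of the study counts the samples of a genotype as single mice, so p-values measure the spread between these samples. Levels are given as CPM, reads relative to library size scaled with TMM factors, and levels of different genes are compared only as RPKM, that is CPM per kilobase of exon.

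Eicosanoids are signalling lipids made from arachidonic acid after phospholipases free it from membranes. Cyclooxygenases turn it into prostanoids such as prostaglandin E2 (PGE2), which acts on dendritic cells largely through the cAMP-raising receptors EP2 and EP4 and is inactivated by the dehydrogenase HPGD. 5-lipoxygenase, helped by its activating protein FLAP, makes leukotriene A4, from which LTA4 hydrolase forms the chemoattractant leukotriene B4 and LTC4 synthase the cysteinyl leukotrienes.

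Reads on the targeted genes were looked at first. *Jun* (ENSMUSG00000052684.4) had 70.9, 52.4 and 63.1 CPM across fl/fl 1, 2 and 3, against 48.1, 44.2 and 60.4 CPM across Δ/Δ 1, 2 and 3, so the genotypes overlapped (log2 fold change −0.29 ± 0.15 SE, adjusted p = 0.345 by edgeR). *Junb* (ENSMUSG00000052837.6) had 314, 274 and 413 CPM across fl/fl, against 110.3, 171 and 211 CPM across Δ/Δ, with every Δ/Δ library below every fl/fl library (log2 fold change −1.02 ± 0.25 SE, adjusted p = 0.0729 by edgeR). Without Δ/Δ 1 its adjusted p was 0.0359 by edgeR, at a smaller log2 fold change of −0.80. By edgeR it was 0.0370 with a replicate block (log2 fold change −1.05) and 0.0161 without a filter on low counts (−1.02). The adjusted p ranged from 0.000119, by DESeq2's Wald test (−1.02), to 0.228 over the alternatives. The counts cover whole genes, so they do not show which part of *Jun* or *Junb* is present, and the genotypes are used here as labelled. *Itgax*, whose product was also used in the sort, had 114, 128 and 153 CPM across fl/fl, against 44.7, 55.1 and 69.0 CPM across Δ/Δ (log2 fold change −1.22 ± 0.17 SE, adjusted p = 0.0147 by edgeR).

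The sorted cells carried the transcripts of cDC1s. All 12 cDC1 genes looked at were detected, with *Id2* the most abundant per length, and together they held 10976, 10957 and 10964 CPM across fl/fl 1, 2 and 3, against 9026, 10336 and 9846 CPM across Δ/Δ 1, 2 and 3. Of them, *Xcr1*, the chemokine receptor that marks the lineage, had 475, 421 and 442 CPM across fl/fl, against 177, 201 and 122 CPM across Δ/Δ. By log2 fold change 7 of the 12 were lower in Δ/Δ and 5 higher. The largest of these 5 changes was that of *Itgae*, with 151, 206 and 258 CPM across fl/fl, against 201, 891 and 228 CPM across Δ/Δ, far the highest in Δ/Δ 2 (log2 fold change 1.10 ± 0.57 SE, adjusted p = 0.343 by edgeR). The others were the adhesion gene *Cadm1*, with 231, 213 and 228 CPM across fl/fl, against 266, 268 and 305 CPM across Δ/Δ (log2 fold change 0.32 ± 0.07 SE, adjusted p = 0.0615 by edgeR), and the transcription factor genes *Irf8*, *Batf3* and *Id2*, whose genotypes overlapped. These marker genes were picked out after their values were seen. The 10 cDC2 genes, led by *Cd209a*, held 224, 248 and 371 CPM across fl/fl, against 520, 612 and 753 CPM across Δ/Δ. By edgeR, 4 of the 12 cDC1 genes had an adjusted p under 0.05, all lower in Δ/Δ, and 3 of the 10 cDC2 genes, all higher, beside 3.88% of all genes tested. Fewer cells of a type and less RNA per cell cannot be told apart in bulk libraries. The part of these differences in the results on eicosanoid genes was not tested.

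The Δ/Δ libraries differed from each other in genes of mature dendritic cells. The 9 genes of mature dendritic cells, of which *Ccr7* was the most abundant per length and none was at 0, held 1116, 797 and 964 CPM in fl/fl 1, 2 and 3. They held 335, 1920 and 508 CPM across Δ/Δ 1, 2 and 3, so that Δ/Δ 2 lay above all fl/fl libraries and Δ/Δ 1 and Δ/Δ 3 below them. Of the 11 basophil and mast cell genes, 6 were highest in Δ/Δ 2, among them the protease gene *Mcpt8* with 4.80 CPM against 0.203 and 0.572 CPM in Δ/Δ 1 and Δ/Δ 3 and at most 0.170 CPM in the fl/fl libraries. *Kit* was highest in Δ/Δ 3 and *Fcer1a* in fl/fl 2. *Mcpt8*, *Prss34* and *Cpa3*, which had too few reads to be tested, were higher in every Δ/Δ library than in any fl/fl library. *Prss34* had 0.405, 5.50 and 1.28 CPM across Δ/Δ 1, 2 and 3, against at most 0.222 CPM in fl/fl libraries. *Cpa3* had 0.122, 2.38 and 0.396 CPM, against at most 0.111 CPM. The genotypes overlapped for the other genes of the list. The 11 genes summed to 289, 316 and 368 CPM across fl/fl, against 351, 420 and 466 CPM across Δ/Δ, nearly all of it *Kit*, and the mast cell genes *Cma1*, *Tpsb2* and *Mcpt4* were at 0 in all 6 libraries. Several results that rest on Δ/Δ 2 are given with and without it.

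Genes of other cells were looked at as whole lists. The 10 monocyte and macrophage genes held 2448 to 2869 CPM across fl/fl, against 3463 to 4309 CPM across Δ/Δ, with *Lyz2*, which overlapped, the most abundant per length. Of the 7 tested, 2 had an adjusted p under 0.05 by edgeR, both higher in Δ/Δ, beside 3.88% of all genes tested. These were *Ccr2*, with 659, 812 and 909 CPM across fl/fl, against 1391, 1501 and 1723 CPM across Δ/Δ (log2 fold change 0.96 ± 0.13 SE, adjusted p = 0.01296 by edgeR), and *Adgre1* (log2 fold change 0.91 ± 0.17 SE, adjusted p = 0.0317 by edgeR). The macrophage gene *C1qa* reached at most 0.466 CPM. The 8 pDC genes held 225 to 242 CPM across fl/fl, against 245 to 294 CPM across Δ/Δ. The most abundant of them per length, *Bst2*, had 109, 102 and 89.1 CPM across fl/fl, against 78.9, 70.5 and 77.5 CPM across Δ/Δ. By log2 fold change *Bst2* was the only 1 of the 6 tested that was lower in Δ/Δ, and 5 were higher. Of the 6 tested 1 had an adjusted p under 0.05, *Ccr9*, higher in Δ/Δ (log2 fold change 1.41 ± 0.12 SE, adjusted p = 0.00333 by edgeR). The 10 neutrophil genes, led by *S100a9*, summed to 4.66 to 18.9 CPM across fl/fl, against 3.12 to 10.7 CPM across Δ/Δ, with *Ly6g* and *Elane* at 0. These lists are of interest because neutrophils, eosinophils and basophils are rich in enzymes of the leukotriene route. The sort took CD11c+ cells only, and how many of these other cells remained was not tested. The 7 eosinophil genes, led by *Il5ra*, summed to at most 6.94 CPM, in Δ/Δ 2, with *Epx*, *Ear1* and *Ccr3* at 0. The 6 B cell genes, led by *Cd79b*, reached 49.9 CPM in Δ/Δ 2 against 12.8 to 30.8 CPM in the other 5 libraries, and the 7 T and NK cell genes, led by *Il7r*, 9.54 CPM at most, in fl/fl 3.

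*Hpgd*, which encodes the dehydrogenase that starts the breakdown of PGE2 (ENSMUSG00000031613.9, chromosome 8, 56294585 to 56321043, plus strand, GRCm38), was present in fl/fl and nearly missing in Δ/Δ libraries. It had 35.8, 43.0 and 42.8 CPM across fl/fl 1, 2 and 3, against 0.0811, 0 and 0.308 CPM across Δ/Δ 1, 2 and 3, from 929, 1161 and 1010 reads and 2, 0 and 7 reads. The fl/fl libraries lay close together (mean 40.5 ± 4.11 CPM, SD, n = 3), and the highest Δ/Δ library was far below the lowest of them. The fitted log2 fold change was −8.22 (standard error 0.45). Pooled over libraries, 3100 fl/fl reads stood against 9 Δ/Δ reads, a 310-fold difference in CPM with an exact 95% interval of 163 to 678, which covers counting error only. The 0 reads in Δ/Δ 2 allow up to 0.140 CPM (3 reads). The log2 fold change was −7.70 without Δ/Δ 2 and −9.71 without Δ/Δ 3, which held 7 of the 9 Δ/Δ reads, so its size depends on a few reads.

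**Figure D1:**
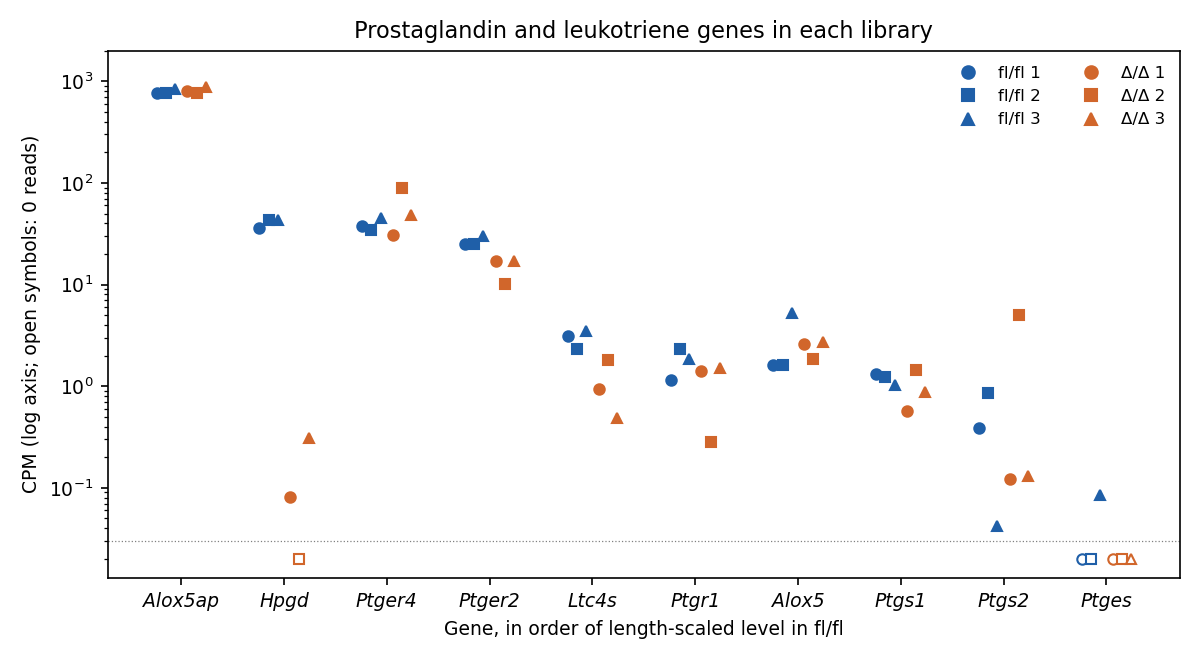
CPM of the 10 genes (log axis) in each library, with fl/fl in blue and Δ/Δ in orange and open symbols for 0 reads. *Hpgd* falls from 35.8 CPM or more in fl/fl to 0.308 CPM or less in Δ/Δ libraries, *Alox5ap* lies at 771 to 875 CPM in all 6, and Δ/Δ 2 (orange squares) is highest for *Ptger4* and *Ptgs2*.

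The promoter of *Hpgd* is shown because no other of the 10 genes differed as much and the proteins targeted in Δ/Δ mice, c-Jun and JunB, bind the AP-1 motif TGANTCA. The 250 bases before its start in RefSeq (GRCm38.p6, chr8:56294302-56294551, plus strand) hold no copy of TGANTCA. Capitals mark the 1 stretch of 7 bases that departs from that motif at a single position.
Hpgd: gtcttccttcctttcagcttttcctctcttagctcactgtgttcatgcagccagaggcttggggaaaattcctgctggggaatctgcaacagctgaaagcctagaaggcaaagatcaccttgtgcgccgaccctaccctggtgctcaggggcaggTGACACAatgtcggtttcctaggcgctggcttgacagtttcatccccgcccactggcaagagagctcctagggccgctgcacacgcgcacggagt
Such a near match is common, with at least 1 in 67.5% of the 32851 RefSeq promoter windows of 300 bases (250 before and 50 after the start). Windows were available for 9 of the 10 genes, all but *Alox5ap*, and were searched on both strands. TGANTCA, which 7.81% of all windows hold, was in none of the 9. Nor was the related TGACGTCA, a longer AP-1 and CREB motif that 1.79% of all windows hold. A missing match says only that these letters are not in this window.

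The nearest tested genes on either side of *Hpgd* on chromosome 8 showed no difference of that size. Before it, at 2656 and 1765 kb, lie *Neil3*, a DNA glycosylase gene, and *Spcs3*, a signal peptidase subunit gene, which had log2 fold changes of −0.69 and 0.17. After it, at 210 and 230 kb, lie *Cep44*, a centrosomal protein gene, and *Fbxo8*, an F-box protein gene, with log2 fold changes of 0.01 and −0.02. *Spcs3*, the nearer of the 2 tested genes before *Hpgd*, had 199, 202 and 190 CPM across fl/fl, against 249, 216 and 202 CPM across Δ/Δ. *Gm45540*, a single gene model of unknown function inside *Hpgd* and on the same strand, had 42, 65 and 30 reads in fl/fl 1, 2 and 3 and 0 reads in Δ/Δ 1, 2 and 3. It was at least 40.5-fold lower in Δ/Δ libraries against a floor of 3 reads over the group, and strand does not tell its reads from those of *Hpgd*.

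The genes closest to *Hpgd* in pattern were *Gm12551*, *Cltrn* and *Oas1g*, with root mean square differences of 1.46, 1.62 and 1.81 in centred log2 CPM over the 6 libraries. *Cltrn* encodes collectrin, a partner of amino acid transporters, and *Oas1g* an interferon-induced gene of the oligoadenylate synthetase family. *Gm12551* had 4.39, 3.85 and 4.41 CPM across fl/fl, against 0.0811, 0 and 0 CPM across Δ/Δ. *Cltrn* had 2.50, 1.70 and 3.52 CPM across fl/fl, against no read in Δ/Δ libraries. *Oas1g* had 2.31, 2.45 and 1.53 CPM across fl/fl, against reads in Δ/Δ 3 only (0.0880 CPM). All 3 were near 0 in Δ/Δ libraries, like *Hpgd*, which follows from their choice by pattern, and nothing is read from it.

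Of the PGE2 receptors, *Ptger2*, which encodes EP2 (ENSMUSG00000037759.6, chromosome 14, 44988195 to 45003820), had 25.2, 25.2 and 30.1 CPM across fl/fl 1, 2 and 3, against 17.1, 10.2 and 16.9 CPM across Δ/Δ 1, 2 and 3. Every Δ/Δ library lay below every fl/fl library, with Δ/Δ 2 the lowest (log2 fold change −0.86, standard error 0.21, and −0.66 without Δ/Δ 2). *Ptger4*, which encodes EP4 (ENSMUSG00000039942.15, chromosome 15, 5206661 to 5244187), had 37.9, 34.8 and 45.4 CPM across fl/fl, against 31.1, 89.4 and 48.2 CPM across Δ/Δ. The Δ/Δ libraries spanned those of fl/fl, and the difference in means came from Δ/Δ 2 (log2 fold change 0.51, standard error 0.35, and 0.01 without Δ/Δ 2). *Ptger4* was highest where the mature dendritic cell genes were highest, whose part in it was not tested. Both genes overlap genes of the other strand, *Gm17173* with *Ptger2* and *Ttc33* with *Ptger4*. The libraries were made with a kit that keeps the strand of the RNA, but whether the deposited counts used it is not stated, and the split of reads between such pairs is uncertain. *Gm17173* held at most 1.78 CPM and *Ttc33* 18.5 to 23.6 CPM.

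Within a library, the 4 PGE2 receptor genes were set against each other per length. *Ptger3*, the gene of the cAMP-lowering receptor EP3, took the largest share of their summed RPKM in all libraries but Δ/Δ 2, with 52.2, 54.4 and 48.5% in fl/fl and 71.6, 42.6 and 60.7% in Δ/Δ libraries. The share of *Ptger2* was 20.7, 21.1 and 22.9% in fl/fl and 11.1, 7.11 and 11.8% in Δ/Δ libraries, again without overlap. *Ptger4* took 24.4, 22.8 and 27.0% in fl/fl and 15.7, 48.9 and 26.3% in Δ/Δ libraries. *Ptger1*, the gene of EP1, took at most 2.69% in any library. These shares do not depend on the scaling between libraries, and *Ptger2* had the smaller share in all 3 Δ/Δ libraries.

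**Figure D2:**
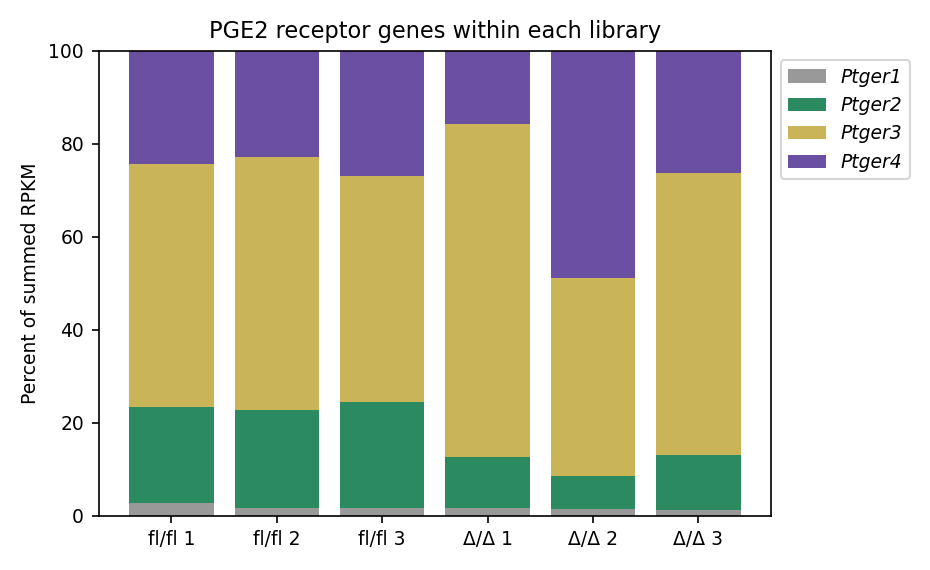
Share of each PGE2 receptor gene in their summed RPKM (percent), with 1 bar per library. The green *Ptger2* share is 20.7 to 22.9% in fl/fl and 7.11 to 11.8% in Δ/Δ libraries, and *Ptger4* reaches 48.9% in Δ/Δ 2.

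In the leukotriene branch, *Alox5ap*, which encodes FLAP (ENSMUSG00000060063.9, chromosome 5, 149264767 to 149288153), was the most abundant of the 10 genes. It had 774, 771 and 846 CPM across fl/fl 1, 2 and 3, against 807, 774 and 875 CPM across Δ/Δ 1, 2 and 3. The genotypes overlapped, and the log2 fold change was 0.04 (standard error 0.07). *Gm19719*, which overlaps *Alox5ap* on the other strand, held 5.59 to 10.2 CPM, and the split of reads between them is uncertain. *Alox5*, the gene of 5-lipoxygenase itself (ENSMUSG00000025701.12), had 1.62, 1.63 and 5.21 CPM across fl/fl, against 2.595, 1.86 and 2.73 CPM across Δ/Δ. Here fl/fl 3 stood above the other 5 libraries, and the log2 fold change of −0.23 (standard error 0.50) became 0.56 without it. Per length, the transcript of the helper protein stood at 561 ± 29.9 RPKM in fl/fl libraries and that of its enzyme at 0.687 ± 0.505 RPKM (SD, n = 3).

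*Ltc4s*, which encodes LTC4 synthase (ENSMUSG00000020377.15, chromosome 11, 50236461 to 50238616), had 3.12, 2.33 and 3.48 CPM across fl/fl 1, 2 and 3, against 0.932, 1.82 and 0.484 CPM across Δ/Δ 1, 2 and 3. All Δ/Δ libraries lay below all fl/fl libraries, with Δ/Δ 2 the nearest to them. The log2 fold change was −1.47 (standard error 0.46) and −2.05 without Δ/Δ 2. These values rest on 81, 63 and 82 reads in fl/fl and 23, 39 and 11 reads in Δ/Δ libraries. *Gm26542*, which overlaps *Ltc4s* on the other strand, had 3, 11 and 15 reads in fl/fl and 9, 6 and 5 reads in Δ/Δ libraries, and the split between the 2 is uncertain. The genes closest to it in pattern were *Edil3*, an extracellular matrix protein gene, *Cebpb*, a transcription factor gene, and *Gm26586*, with root mean square differences of 0.132, 0.185 and 0.201 in centred log2 CPM over the 6 libraries. Of these *Cebpb* had 2.20, 1.82 and 1.86 CPM across fl/fl, against 0.649, 1.45 and 0.352 CPM across Δ/Δ.

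The enzymes that make PGE2 left few reads. *Ptgs1*, the gene of the constitutive cyclooxygenase COX-1 (ENSMUSG00000047250.13), had 1.31, 1.22 and 1.02 CPM across fl/fl, against 0.568, 1.45 and 0.880 CPM across Δ/Δ, which overlapped through Δ/Δ 2 (log2 fold change −0.30, standard error 0.40, and −0.71 without Δ/Δ 2). *Ptgs2*, the gene of the inducible COX-2 (ENSMUSG00000032487.8), had 10, 23 and 1 reads in fl/fl 1, 2 and 3 and 3, 108 and 3 reads in Δ/Δ 1, 2 and 3. Its 5.03 CPM in Δ/Δ 2 stood against at most 0.852 CPM in the other 5 libraries, and it failed the filter because no more than 2 libraries had enough reads. *Ptges*, the gene of the inducible PGE2 synthase (ENSMUSG00000050737.13), had 2 reads in fl/fl 3 and none elsewhere. The 0 reads among the 68997071 of the Δ/Δ libraries allow up to 0.0436 CPM, and no fold is given because both genotypes lie under the floor of 3 reads. *Ptgr1*, the gene of a reductase that acts after HPGD and also inactivates leukotriene B4 (ENSMUSG00000028378.6), had 1.16, 2.30 and 1.87 CPM across fl/fl, against 1.42, 0.280 and 1.50 CPM across Δ/Δ. Its genotypes overlapped, with Δ/Δ 2 the lowest (log2 fold change −0.72, standard error 0.58, and −0.28 without Δ/Δ 2).

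**Figure D3:**
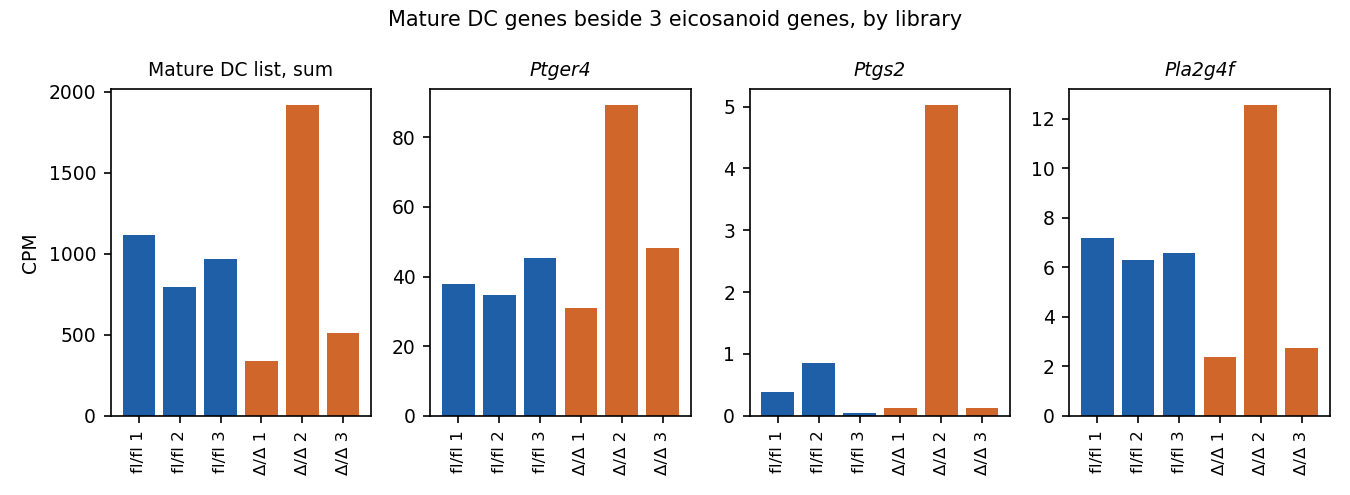
CPM by library of the 9 mature dendritic cell genes summed, *Ptger4*, *Ptgs2* and *Pla2g4f*, each on its own axis from 0, with fl/fl in blue and Δ/Δ in orange. All 4 are highest in Δ/Δ 2, at 1920, 89.4, 5.03 and 12.6 CPM.

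Per length, the order of the 10 genes in fl/fl libraries was *Alox5ap* (561 RPKM), *Hpgd* (24.1 RPKM), *Ptger4* (5.92 RPKM), *Ptger2* (5.16 RPKM), *Ltc4s* (2.94 RPKM), *Ptgr1* (0.772 RPKM), *Alox5* (0.687 RPKM), *Ptgs1* (0.305 RPKM), *Ptgs2* (0.0931 RPKM) and *Ptges* (0.00719 RPKM). Neighbours in this order did not overlap between libraries except *Ptger4* with *Ptger2*, *Ptgr1* with *Alox5*, and *Ptgs2* with *Ptges*. *Alox5ap* lay above 99.5% of the tested genes, *Hpgd* above 84.0%, *Ptger4* above 50.3% and *Ptgs1* above 7.68%. In Δ/Δ libraries *Hpgd* moved from the second to the ninth place (0.0771 RPKM) and overlapped with *Ptgs1* before it and *Ptges* after it. There *Alox5ap* (577 RPKM), *Ptger4* (8.46 RPKM), *Ptger2* (2.84 RPKM) and *Ltc4s* (1.06 RPKM) led without overlap between neighbours, and from *Ltc4s* on each gene overlapped with the next.

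**Figure D4:**
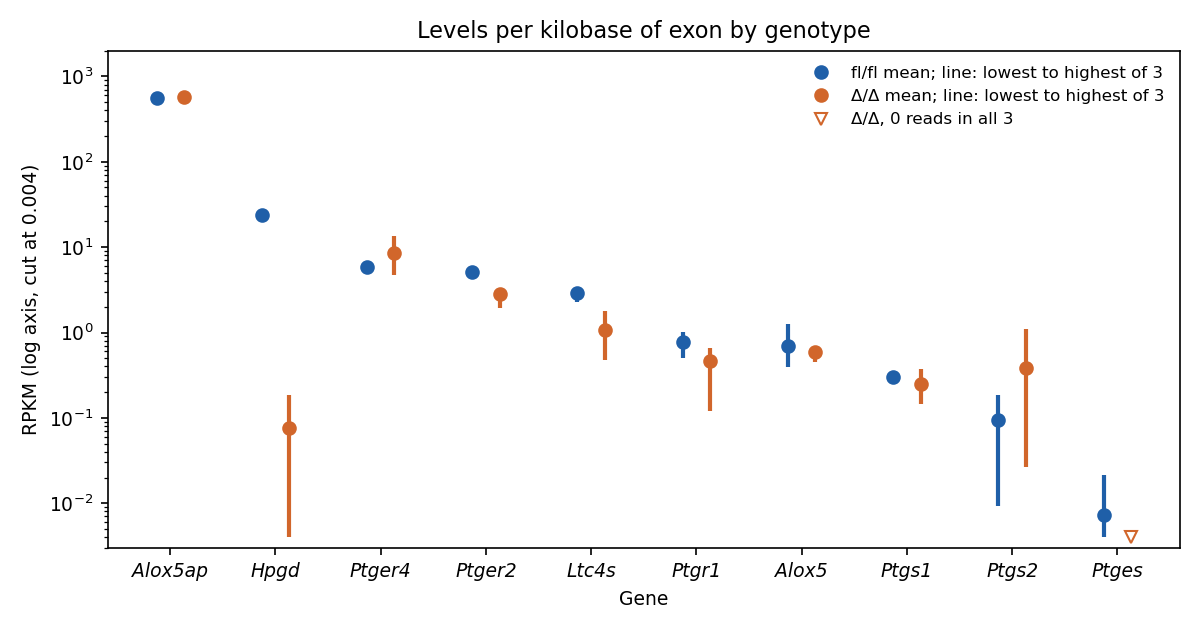
Mean RPKM of the 10 genes (log axis, drawn from 0.004 RPKM up) in fl/fl (blue) and Δ/Δ (orange), with lines from the lowest to the highest of 3 libraries and a triangle for 0 reads. The genes fall from 561 to 0.00719 RPKM in fl/fl, and *Hpgd* is at 0.0771 RPKM in Δ/Δ.

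A call needed an adjusted p under 0.05 from edgeR over all 12894 tested genes together with a log2 fold change at or beyond 1 or −1. Of all genes tested, 240 (1.86%) were called, 128 (0.993%) higher and 112 (0.869%) lower in Δ/Δ libraries. Of the 10 listed genes 1, *Hpgd*, lay past both limits, and nothing is read from this share, because the genes were selected on this contrast. Leaving out fl/fl 1, 2 or 3 gave 74, 80 or 154 calls over all genes, and leaving out Δ/Δ 1, 2 or 3 gave 579, 370 or 192. *Hpgd*, *Ltc4s* and *Ptger2* had genotypes that did not overlap, which held for 26.0% of all tested genes. The 8 tested genes had a median log2 fold change of −0.51, with 6 lower and 2 higher in Δ/Δ, beside a median of 0.00 over all tested genes (6406 lower and 6488 higher).

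The rest of the pathway was followed in 61 genes sorted by role, of which 33 had enough reads to be tested and 14 had no read in any library. Of the 33, 2 were called, *Ptgir* and *Dpep3*, both higher in Δ/Δ, beside 1.86% of all genes tested. At any fold change, 5 had an adjusted p under 0.05 by edgeR, beside 3.88% of all genes tested. These 5 were 4 higher genes, *Ptgir*, *Dpep3*, *Dpep2* and *Cyp4f16*, and 1 lower gene, *Lta4h*. The median log2 fold change of the 33 was 0.13, with 19 higher and 14 lower. The count of 2 became 4 without Δ/Δ 1 and 4 without Δ/Δ 2.

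**Figure D5:**
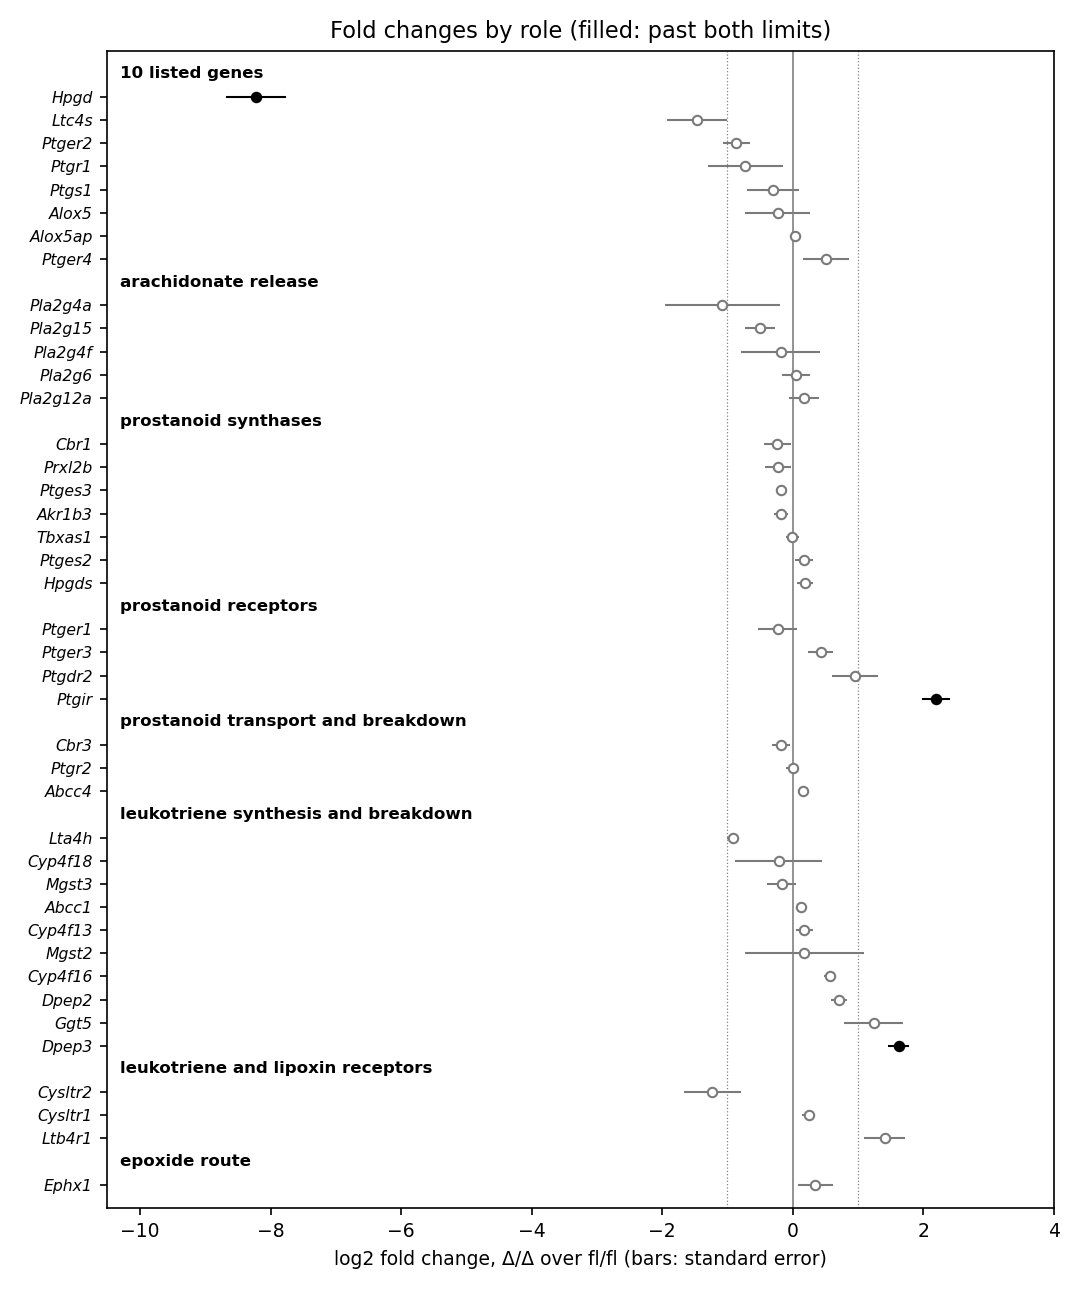
Log2 fold change of Δ/Δ over fl/fl with its standard error for the 8 tested genes of the 10 and the 33 tested genes of the wider pathway, grouped by role (dotted lines at −1 and 1, filled points past both limits of a call). *Hpgd* lies at −8.22, *Ptgir* at 2.19 and *Dpep3* at 1.63, and the prostanoid synthases lie between −0.23 and 0.19.

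Among prostanoid receptors, *Ptgir*, which encodes the cAMP-raising receptor of prostacyclin, rose in Δ/Δ libraries. It had 6.43, 5.52 and 8.48 CPM across fl/fl 1, 2 and 3, against 36.4, 32.9 and 24.0 CPM across Δ/Δ 1, 2 and 3, without overlap. The log2 fold change was 2.19 (standard error 0.22, edgeR adjusted p = 0.00417). It stayed between 2.06 and 2.38 over 12 alternatives, with an adjusted p of at most 0.0402. *Ptger3* was the most abundant prostanoid receptor gene outside the 10 per length (12.3 RPKM in fl/fl). It had 69.5, 70.9 and 69.8 CPM across fl/fl, against 121, 66.7 and 95.4 CPM across Δ/Δ (log2 fold change 0.43 ± 0.19 SE, adjusted p = 0.276 by edgeR). Of the 7 receptor genes 4 were tested, and *Ptgdr* and *Ptgfr* had no read.

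In the leukotriene branch, *Lta4h*, which encodes the hydrolase that makes leukotriene B4, fell in Δ/Δ libraries. It had 98.8, 101.7 and 103.8 CPM across fl/fl 1, 2 and 3, against 59.0, 55.6 and 46.7 CPM across Δ/Δ 1, 2 and 3, and the libraries of a genotype lay close together. The log2 fold change of −0.92 (standard error 0.09, edgeR adjusted p = 0.00426) was short of the fold limit of a call, and over 12 alternatives it lay between −0.99 and −0.82. *Ltb4r1*, the gene of the leukotriene B4 receptor BLT1, had 12.2, 14.3 and 20.2 CPM across fl/fl, against 36.9, 27.2 and 59.5 CPM across Δ/Δ. These did not overlap, but the test missed its threshold (log2 fold change 1.41 ± 0.31 SE, adjusted p = 0.0571 by edgeR). *Ltb4r1* was picked out after its values were seen. Leaving out Δ/Δ 1 gave an adjusted p of 0.0364, leaving out Δ/Δ 2 gave 0.0231 and DESeq2 gave 3.24e-05, the lowest of a range up to 0.234 over the alternatives. By edgeR, *Ltb4r1* also passed both limits of a call with a replicate block (log2 fold change 1.36, adjusted p = 0.0179). The same held without a filter on low counts (log2 fold change 1.40, adjusted p = 0.0101). *Cysltr1*, the gene of a cysteinyl leukotriene receptor and the most abundant leukotriene receptor gene per length (36.7 RPKM in fl/fl), had 174, 188 and 204 CPM across fl/fl, against 225, 196 and 248 CPM across Δ/Δ (log2 fold change 0.24 ± 0.10 SE, adjusted p = 0.249 by edgeR). *Cysltr2*, another leukotriene receptor gene picked out after its values were seen, was lower in Δ/Δ without overlap. It had 0.617, 1.07 and 1.02 CPM across fl/fl, against 0.324, 0.559 and 0.264 CPM across Δ/Δ (log2 fold change −1.24 ± 0.44 SE, adjusted p = 0.182 by edgeR).

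Of the 12 genes of leukotriene synthesis and breakdown 10 were tested, and beside the lower *Lta4h* 3 had an adjusted p under 0.05 and were higher in Δ/Δ, where 3.88% of all genes tested had such a p in either direction. *Dpep3* encodes a membrane-bound dipeptidase, and whether it acts on leukotrienes was not tested. The gene had 15.8, 14.8 and 18.4 CPM across fl/fl 1, 2 and 3, against 44.5, 44.4 and 62.2 CPM across Δ/Δ 1, 2 and 3 (log2 fold change 1.63 ± 0.16 SE, adjusted p = 0.00417 by edgeR). Its neighbour *Dpep2*, of the same family, had 55.3, 67.1 and 69.6 CPM across fl/fl, against 105, 91.8 and 119 CPM across Δ/Δ (log2 fold change 0.72 ± 0.12 SE, adjusted p = 0.0243 by edgeR). A second gene model with the name *Dpep2* overlaps it on the same strand, so its reads are uncertain. *Cyp4f16*, a cytochrome P450 gene of the family that oxidises leukotriene B4, had 31.2, 35.6 and 32.7 CPM across fl/fl, against 46.3, 54.4 and 47.4 CPM across Δ/Δ (log2 fold change 0.57 ± 0.09 SE, adjusted p = 0.0213 by edgeR). 2 other genes of its family, picked out after their values were seen, did not pass, *Cyp4f18* with a log2 fold change of −0.21 (edgeR adjusted p = 0.894) and *Cyp4f13* with 0.18 (edgeR adjusted p = 0.482). For none of *Dpep3*, *Dpep2* and *Cyp4f16* did the genotypes overlap, which held for 26.0% of all tested genes. *Dpep3* kept an adjusted p of at most 0.0416 over the alternatives. That of *Dpep2* was 0.110, 0.110 and 0.0677 without fl/fl 1, 2 and 3 and 0.0564 without Δ/Δ 3. That of *Cyp4f16* was 0.126, 0.0851 and 0.0910 without fl/fl 1, 2 and 3.

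The prostanoid synthases, of which 7 of 9 were tested, had log2 fold changes between −0.23 and 0.19 (edgeR adjusted p from 0.299 to 0.990). They included abundant genes, with 48.6 RPKM in fl/fl for *Ptges3*, which encodes a cytosolic PGE2 synthase that is also a chaperone partner, and 47.4 and 27.9 RPKM for *Hpgds* and *Tbxas1*, the synthase genes of prostaglandin D2 and thromboxane. *Hpgds* had 305, 317 and 291 CPM across fl/fl, against 388, 278 and 376 CPM across Δ/Δ, which overlapped. *Hpgds* and *Tbxas1* were picked out after their values were seen. Genes of prostanoid transport and breakdown other than *Hpgd* and *Ptgr1* had log2 fold changes of −0.18 to 0.16 for the 3 tested of 5 (edgeR adjusted p from 0.341 to 0.999). Among them *Abcc4*, which encodes an exporter of prostaglandins, was the most abundant (14.2 RPKM in fl/fl and 15.8 RPKM in Δ/Δ).

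Of 12 genes of arachidonate release 5 were tested, with adjusted p-values from 0.293 to 0.929 by edgeR, and the most abundant, *Pla2g12a*, was at 2.66 RPKM in fl/fl and 2.99 RPKM in Δ/Δ libraries. *Pla2g4f*, which encodes a cytosolic phospholipase and was picked out after its values were seen, had 7.21, 6.30 and 6.57 CPM across fl/fl, against 2.39, 12.6 and 2.73 CPM across Δ/Δ. It followed the order of the mature dendritic cell genes, above all fl/fl libraries in Δ/Δ 2 and below them in Δ/Δ 1 and Δ/Δ 3. Its log2 fold change was −0.19 with all libraries (edgeR adjusted p = 0.898) and −1.39 without Δ/Δ 2 (adjusted p = 0.0140, in a range up to 0.964 over the alternatives). The direction turned without Δ/Δ 1 (log2 fold change 0.19) and without Δ/Δ 3 (0.16). The 6 other lipoxygenase genes were not tested for want of reads, with at most 0.886 CPM for *Alox15*, the most abundant of them. Of the epoxide route 1 gene of 4 was tested, *Ephx1*, which encodes an epoxide hydrolase and had 2.55 RPKM in fl/fl and 3.23 RPKM in Δ/Δ libraries (log2 fold change 0.34, edgeR adjusted p = 0.526).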

How the data were processed

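The authors aligned paired reads (2 × 75 bases) to GRCm38 with STAR 2.6.1a and Gencode vM19 and deposited STAR's counts of reads per gene for each library, without normalization. Their processing notes also name bcl2fastq, RSEM and DESeq2 1.20.0. Of the 54532 identifiers, 54495 were found in Gencode release M21, used for names, coordinates and exon lengths. STAR's tallies outside genes were left out (3.26 to 4.20% unmapped, 5.33 to 5.76% on several places, 8.57 to 10.3% on no gene, 1.81 to 1.98% ambiguous).

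Genotypes were compared with edgeR 4.0.16 in R 4.3.3 (TMM, filterByExpr with a minimum count of 10, quasi-likelihood test on genotype), adjusted over all tested genes by Benjamini-Hochberg and tested on simulated counts. The alternatives tried were size factors of DESeq2, its Wald test (version 1.42.0), limma-voom 3.58.1, other filters, each library left out, a replicate block and no fold limit. The members and gene lists were chosen with earlier results of these data known. Named were the members, *Jun*, *Junb* and *Itgax*. Of pathway and endocannabinoid genes, those with an adjusted p under 0.05 or the highest RPKM of their role were named. So were the 3 genes nearest in pattern to *Hpgd* and *Ltc4s*, genes overlapping members on the same strand, and 2 tested neighbours on either side of *Hpgd*. Of the genes overlapping on the same strand, *Gm13400*, within *Ptges*, had no read and is named only here. Other genes named, such as markers, genes overlapping members on the other strand, *Hpgds*, *Tbxas1*, *Ltb4r1*, *Cysltr2*, *Pla2g4f*, *Gpr55*, *Faah*, *Cyp4f13* and *Cyp4f18*, fall outside this rule and were picked out after their values were seen. Libraries of a genotype differed by a chi-square per degree of freedom of 6.35 to 38.5. This sets separate samples against counting noise alone, and nothing is concluded from it. 1 pathway gene, *Ptgr3*, had no matching symbol. Patterns were compared as log2 CPM with a prior count of 2. Floors and intervals cover counting error only. Promoter sequences are from RefSeq.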

Additional observations from a re-analysis of the deposited data

How the results depend on the processing

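The calls over all 12894 genes numbered 240 and ranged from 74 to 579 with 1 library left out. DESeq2's Wald test gave 385 and no limit on the fold change 500. The log2 fold change of *Hpgd* lay between −9.71 and −7.70 over the 12 alternatives. The members past both limits numbered 1, or 1 to 2 with a library left out. The 2 pathway calls became 2 to 4 with a library left out and 5 with no limit on the fold change, and *Ptgir*, *Dpep3* and *Lta4h* kept an adjusted p under 0.05 under all 12. The 1 endocannabinoid call became 0 to 3 with a library left out, 2 with DESeq2's size factors, 3 with its Wald test, 2 without a filter on low counts, 2 with a stricter one and 2 with no limit on the fold change. The cause of these shifts was not tested.

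Same-numbered libraries deviated together by correlations of 0.0910, −0.15 and 0.200, not over 0.1 in every pair. fl/fl 1 and fl/fl 3 correlated best with the Δ/Δ library of their own number and fl/fl 2 with Δ/Δ 1. With 3 libraries per genotype, centred within each genotype, this check cannot exclude a pairing. The libraries were treated as sharing only a number. With a replicate block 207 genes, 1 member, 3 pathway genes and 1 endocannabinoid gene were called. Depth limits *Ptges* and *Ptgs2*, which had too few reads to be tested.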

Other observations

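Endocannabinoids are the other family of signalling lipids built on arachidonic acid, and 14 genes of their synthesis, breakdown and receptors were followed beside the eicosanoid genes. Of these, 11 were tested and 2 had an adjusted p under 0.05, both receptor genes and both higher in Δ/Δ libraries, beside 3.88% of all genes tested. *Gpr18*, which encodes a lipid-sensing receptor, had 4.70, 4.19 and 4.79 CPM across fl/fl 1, 2 and 3, against 10.4, 10.3 and 12.7 CPM across Δ/Δ 1, 2 and 3, and it was called (log2 fold change 1.29 ± 0.15 SE, adjusted p = 0.00751 by edgeR). *Cnr2*, the gene of the cannabinoid receptor CB2, had 39.6, 45.2 and 52.9 CPM across fl/fl, against 80.0, 109 and 86.1 CPM across Δ/Δ. Its log2 fold change of 0.999 (standard error 0.15, edgeR adjusted p = 0.0159) lay just short of the limit of a call. Both were higher in 3 of 3 Δ/Δ libraries than in any fl/fl library, and 26.0% of all tested genes had genotypes that did not overlap. Both missed the threshold without fl/fl 1 (adjusted p = 0.0563 for *Gpr18* and 0.0939 for *Cnr2* by edgeR) and without fl/fl 2 (0.0612 and 0.103, the highest over 12 alternatives).

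The most abundant gene of this list per length was *Naaa*, which encodes an acid amidase of lysosomes, at 622 RPKM in fl/fl and 485 RPKM in Δ/Δ libraries. It had 2372, 2392 and 2179 CPM across fl/fl, against 1671, 2296 and 1443 CPM across Δ/Δ, which overlapped through Δ/Δ 2 (log2 fold change −0.36 ± 0.16 SE, adjusted p = 0.275 by edgeR). Without Δ/Δ 2 its log2 fold change was −0.57 (edgeR adjusted p = 0.0163, in a range up to 0.557 over the alternatives). *Faah*, the gene of a hydrolase that breaks down anandamide, picked out after its values were seen, had 1.97, 2.45 and 2.92 CPM across fl/fl, against 4.05, 7.60 and 6.43 CPM across Δ/Δ, without overlap (log2 fold change 1.30 ± 0.29 SE, adjusted p = 0.0572 by edgeR, in a range of 0.00312 to 0.239 over the alternatives). *Gpr55*, another lipid receptor gene, picked out after its values were seen, was at 3.47, 2.45 and 3.82 CPM across fl/fl, against 0.811, 10.6 and 1.76 CPM across Δ/Δ. Like *Pla2g4f*, it was above all fl/fl libraries in Δ/Δ 2 and below them in Δ/Δ 1 and Δ/Δ 3. Its log2 fold change of 0.43 became −1.34 without Δ/Δ 2 (edgeR adjusted p = 0.817 with it and 0.122 without, in a range up to 0.935 over the alternatives). With all libraries kept, the log2 fold change was also negative by limma-voom (−0.41) and with a replicate block (−0.34).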
